A study of Mus musculus with 2 samples.

Results

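The SREBP pathway controls how much sterol and unsaturated fatty acid a cell makes, and 7 of its genes were followed here in microglia of the early postnatal mouse retina. They were chosen by gene name: *Hmgcs1*, *Sqle* and *Fdft1*, which encode enzymes of cholesterol synthesis, *Insig1*, *Srebf1* and *Srebf2*, which encode regulators, and *Scd2*, which encodes a fatty acid desaturase. All 7 were among the 13549 genes of the count table, and all 7 passed the minimum of 20 reads over both libraries. The cells came from CD11c-Cre-gfp;Rosa-TDTom mice at postnatal day 5, in which a Cre-GFP reports the CD11c promoter and Cre leaves a lasting TdTomato label. Cd11c-active cells were positive for GFP and TdTomato (4041 cells), and Cd11c-lineage cells, which by this design used the promoter earlier, were positive for TdTomato without GFP (5441 cells). Both were sorted from the same 8 retinas, with 4 female and 4 male given in the labels, and each gave 1 library. There were therefore no replicates, no test between conditions was possible, and every value below compares these 2 libraries.

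As background, SREBP proteins are membrane-bound transcription factors. When sterol in the endoplasmic reticulum is low, the escort protein SCAP carries them to the Golgi, where proteases release the active factor, which then switches on genes for sterol synthesis and uptake. When sterol is ample, INSIG proteins hold SCAP back, so *Insig1*, itself an SREBP target, is part of a feedback loop. Macrophages that digest engulfed cells take up much sterol, and microglia also export it to other cells.

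The promoter table of RefSeq (build GRCm38.p6) held windows for 4 of the 7 genes, *Hmgcs1*, *Insig1*, *Srebf1* and *Srebf2*. *Sqle*, *Fdft1* and *Scd2* had no entry. Each window has 300 bases, with 250 before and 50 from the annotated start site on. The windows of an enzyme, a feedback regulator and a transcription factor of the pathway are printed because *Hmgcs1* and *Insig1* differed in opposite directions between the libraries while *Srebf2* was near equal. All 3 lie on the plus strand: *Hmgcs1* at chr13:119690101-119690400, *Insig1* at chr5:28071162-28071461 and *Srebf2* at chr15:82147019-82147318. Capitals mark, on either strand, the sterol regulatory element letters TCACNCCA, the E-box CACGTG, which reads the same on both strands, and the CCAAT box, searched as ATTGG.
Hmgcs1: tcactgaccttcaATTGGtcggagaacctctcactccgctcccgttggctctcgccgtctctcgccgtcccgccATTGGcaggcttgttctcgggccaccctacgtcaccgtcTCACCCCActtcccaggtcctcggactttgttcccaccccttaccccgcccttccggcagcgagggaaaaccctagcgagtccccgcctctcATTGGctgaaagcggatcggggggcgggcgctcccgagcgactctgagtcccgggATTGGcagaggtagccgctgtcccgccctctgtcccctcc
Insig1: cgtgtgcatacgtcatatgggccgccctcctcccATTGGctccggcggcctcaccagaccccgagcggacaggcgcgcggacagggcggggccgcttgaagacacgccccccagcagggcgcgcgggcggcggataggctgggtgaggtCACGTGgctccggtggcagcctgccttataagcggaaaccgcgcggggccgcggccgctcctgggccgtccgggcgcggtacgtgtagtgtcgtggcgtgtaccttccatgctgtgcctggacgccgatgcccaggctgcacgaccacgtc
Srebf2: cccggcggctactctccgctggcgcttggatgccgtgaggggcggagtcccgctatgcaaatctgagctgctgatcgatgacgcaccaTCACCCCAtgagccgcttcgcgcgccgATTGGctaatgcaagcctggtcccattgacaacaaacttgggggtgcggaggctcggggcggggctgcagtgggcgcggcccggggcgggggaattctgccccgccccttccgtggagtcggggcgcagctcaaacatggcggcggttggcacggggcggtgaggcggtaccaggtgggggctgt

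The letters TCACNCCA occurred once in *Hmgcs1*, with their first base 137 bases upstream of the start site, and once in *Srebf2*, 162 bases upstream. They occur in 4.36% of all 32851 windows of this length. The *Insig1* window had no match to them and held 1 E-box, 101 bases upstream, a motif present in 7.15% of windows. The ATTGG motif had 4 matches in *Hmgcs1* and 1 each in *Insig1* and *Srebf2*, against at least 1 in 37.4% of windows, and none of the capitalised motifs overlap. The Sp1-type GC box GGGCGG, not capitalised, had 3 matches in *Hmgcs1*, 3 in *Insig1* and 5 in *Srebf2*, and is found in 35.7% of windows. The 3 windows of *Srebf1* held neither TCACNCCA nor CACGTG. These matches describe letters in the reference and say nothing of binding in these cells.

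The libraries held 12943998 (Cd11c-active) and 13402625 (Cd11c-lineage) reads. Levels are given as CPM, the reads of a gene relative to library size after scaling by TMM, a method that aligns the bulk of genes between libraries, and ratios are log2 of Cd11c-active over Cd11c-lineage. TMM sets every ratio 0.14 higher than scaling to library totals does. Residual ribosomal RNA was unequal, with *Rn18s* holding 8.57% (Cd11c-active) and 2.84% (Cd11c-lineage) of the reads of all genes counted, and scaling without such genes gave the same median of all genes, 0.01. Intervals are exact 95% intervals for counting error only. The spread among genes of like abundance was much wider than counting error, so each ratio is also placed among the 500 genes nearest to it in summed reads, as a percentile and with the range of the middle 95% of those genes. All 12 microglial markers, among them *Csf1r*, *Cx3cr1* and *P2ry12*, were present in both libraries and within 2-fold, with summed levels of 21454 and 20636 CPM. Other cell types were unequal, as described below.

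In these 2 libraries 27 of the 31 pathway genes with at least 1000 reads were within 2-fold. *Insig1*, *Scarb1* and *Gpam* (9.68%) were at least 2-fold lower in Cd11c-active and *Nr1h2* (3.23%) at least 2-fold higher, against 4.14% and 5.43% of all genes with as many reads. *Sqle* and *Fdft1* were higher in Cd11c-active, at few reads. Of the 7 genes 2 were at least 2-fold higher and 1 was at least 2-fold lower, against 23.3% and 21.6% of the 13037 genes with at least 20 reads, a share close to the background. The median log2 ratio of the 7 was 0.36, and that of all genes 0.01. Of the 7, *Insig1* lay at the lower limit of the middle 95% of its nearest genes, at percentile 2.6, and the other 6 lay within theirs. Added together, the 7 genes had 16538 reads in Cd11c-active against 15059, a log2 ratio of 0.32 (0.29 to 0.35). This sum was mostly *Scd2*, which gave 80.0% of it in Cd11c-active and 74.5% in Cd11c-lineage, and without *Scd2* the ratio was -0.03 (-0.10 to 0.03), of the opposite sign.

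**Figure D1:**
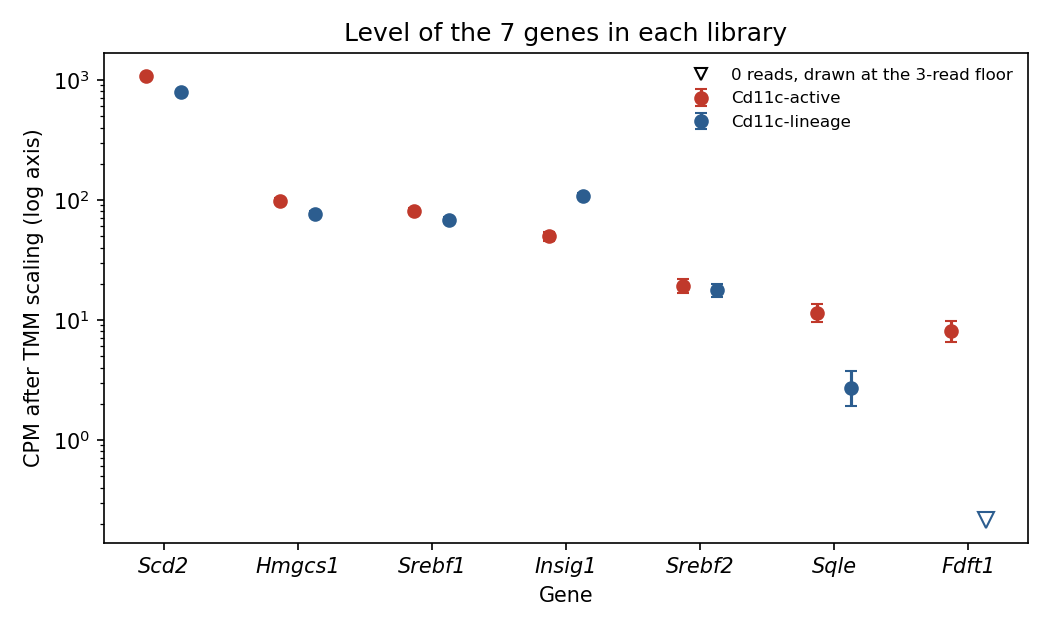
Level of each of the 7 genes in CPM on a log axis, with red points for the Cd11c-active library and blue points for the Cd11c-lineage library (1 library each). Bars are exact 95% Poisson intervals for counting error, and the open triangle marks a count of 0 drawn at the floor of 3 reads. *Insig1* is the gene whose blue point lies clearly above the red one, at 109 against 49.5 CPM.

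The first of the synthesis enzymes, *Hmgcs1* (ENSMUSG00000093930), makes HMG-CoA, an early intermediate of cholesterol synthesis. Its reads numbered 1213 in the Cd11c-active library and 1075 in the Cd11c-lineage library, which gives 98.2 and 76.5 CPM. The Cd11c-active level was slightly higher, a log2 ratio of 0.36 (0.24 to 0.48), or 0.22 when scaled to library totals. Its nearest genes ran from -1.08 to 1.23 over their middle 95%, which places *Hmgcs1* at percentile 74.4. This is a small difference beside the spread of genes measured as well as *Hmgcs1*.

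*Sqle* (ENSMUSG00000022351) encodes squalene epoxidase, the oxygen-dependent step that commits squalene to sterols. It had 141 reads against 38, or 11.4 and 2.70 CPM, and was 4.18-fold higher in Cd11c-active. The log2 ratio was 2.06 (1.55 to 2.64), at percentile 79.8 of its nearest genes, whose middle 95% ran from -8.41 to 8.71. Of those genes 66.2% differed by at least 2-fold in either direction, and 23.6% had 0 reads in one library or the other. A difference of this size was therefore common at the depth of *Sqle*.

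*Fdft1* (ENSMUSG00000021273) encodes squalene synthase, which joins farnesyl units into squalene. It had 99 reads in Cd11c-active, or 8.02 CPM, and 0 in Cd11c-lineage. With 0 counted, a true level of up to 3 reads (0.214 CPM) is possible, so *Fdft1* was at least 37.6-fold higher in Cd11c-active against that floor. The exact interval, which also covers counting error in the 99 reads, began at a log2 ratio of 4.91. Among its 500 nearest genes, which had 88 to 111 reads, 55.4% had 0 reads in either library. Having no reads in one or the other library was thus usual at that abundance, and *Fdft1* stood at percentile 90.1.

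Among the regulators, *Insig1* (ENSMUSG00000045294), the sterol-dependent anchor of SCAP, had 611 reads against 1525, or 49.5 and 109 CPM. It was 2.19-fold lower in Cd11c-active, with a log2 ratio of -1.13 (-1.27 to -0.997). Of the 4619 genes with at least 1000 reads, 4.14% were at least 2-fold lower and 5.43% at least 2-fold higher. *Insig1* stood at percentile 2.6 of its 500 nearest genes, whose middle 95% ran from -1.126 to 1.25, so its ratio of -1.132 lay at the lower limit and just past it. Among its 200 nearest genes it stood at percentile 2.0. Its paralog *Insig2*, which also anchors SCAP and is named after its values were seen, differed in the other direction, with 408 reads against 268 and a log2 ratio of 0.79 (0.57 to 1.02), at percentile 75.6.

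The ratio of both INSIG genes within a library does not depend on how libraries are scaled. Per kilobase of the longest annotated transcript, *Insig1* was 1.5 times *Insig2* in Cd11c-active (counting interval 1.32 to 1.70) and 5.69 times in Cd11c-lineage (4.99 to 6.50). *Insig1* stood at 0.647 times *Hmgcs1* per kilobase in Cd11c-active (0.586 to 0.714) and at 1.82 times in Cd11c-lineage (1.68 to 1.97). The balance between the feedback gene and both other genes therefore differed between these libraries by more than counting error. These values restate the log2 ratios of the 3 genes, and counting error is narrower than the spread among genes of like abundance. The nearest genes of *Insig2* ran from -1.96 to 2.77 over their middle 95%.

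*Srebf1* and *Srebf2* encode the transcription factors themselves, the former known mainly for fatty acid genes and the latter for sterol genes. *Srebf1* (ENSMUSG00000020538) had 1000 and 955 reads, or 81.0 and 68.0 CPM, with a log2 ratio of 0.25 (0.12 to 0.38) at percentile 69.4. *Srebf2* (ENSMUSG00000022463) had 236 and 249 reads, or 19.1 and 17.7 CPM, with a log2 ratio of 0.11 (-0.15 to 0.37) at percentile 46.0. The *Srebf1* ratio was 0.12 when scaled to library totals and 0.11 with a trend with transcript length and GC content removed, both below its counting interval. The *Srebf2* interval included equal levels, and its ratio was -0.03 when scaled to library totals. Per kilobase *Srebf1* was 5.00 times *Srebf2* in Cd11c-active (4.34 to 5.79) and 4.53 times in Cd11c-lineage (3.94 to 5.23), intervals that overlap.

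*Scd2* (ENSMUSG00000025203) encodes a stearoyl-CoA desaturase that introduces the double bond of oleate and palmitoleate. It had 13238 and 11217 reads, or 1072 and 798 CPM, and ranked 81 and 118 among all genes by reads. The log2 ratio was 0.43 (0.39 to 0.46), at percentile 84.8 of its nearest genes, which had at least 8028 reads and a middle 95% from -0.63 to 0.80. The paralogs *Scd1*, *Scd3* and *Scd4* were looked for by name and were not among the 13549 genes with counts, whose smallest sum over both libraries was 6 reads. Reads from near-identical stretches of these genes may have been shared by the counting.

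Compared per length, the order of the 7 genes was similar in both libraries except for *Insig1*. In Cd11c-active *Scd2* stood at 197 CPM per kilobase, followed by *Hmgcs1* at 28.4, *Srebf1* at 18.8, *Insig1* at 18.3, *Srebf2* at 3.76, *Sqle* at 2.56 and *Fdft1* at 2.17. The counting intervals of *Srebf1* and *Insig1* overlapped, as did those of *Sqle* (2.15 to 3.02) and *Fdft1* (1.76 to 2.64). In Cd11c-lineage the order was *Scd2* at 146 CPM per kilobase, *Insig1* at 40.2, *Hmgcs1* at 22.1, *Srebf1* at 15.8, *Srebf2* at 3.49, *Sqle* at 0.605 and *Fdft1* at 0. No neighbours in that order had overlapping counting intervals. *Insig1* thus moved past *Hmgcs1* and *Srebf1* between the libraries.

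**Figure D2:**
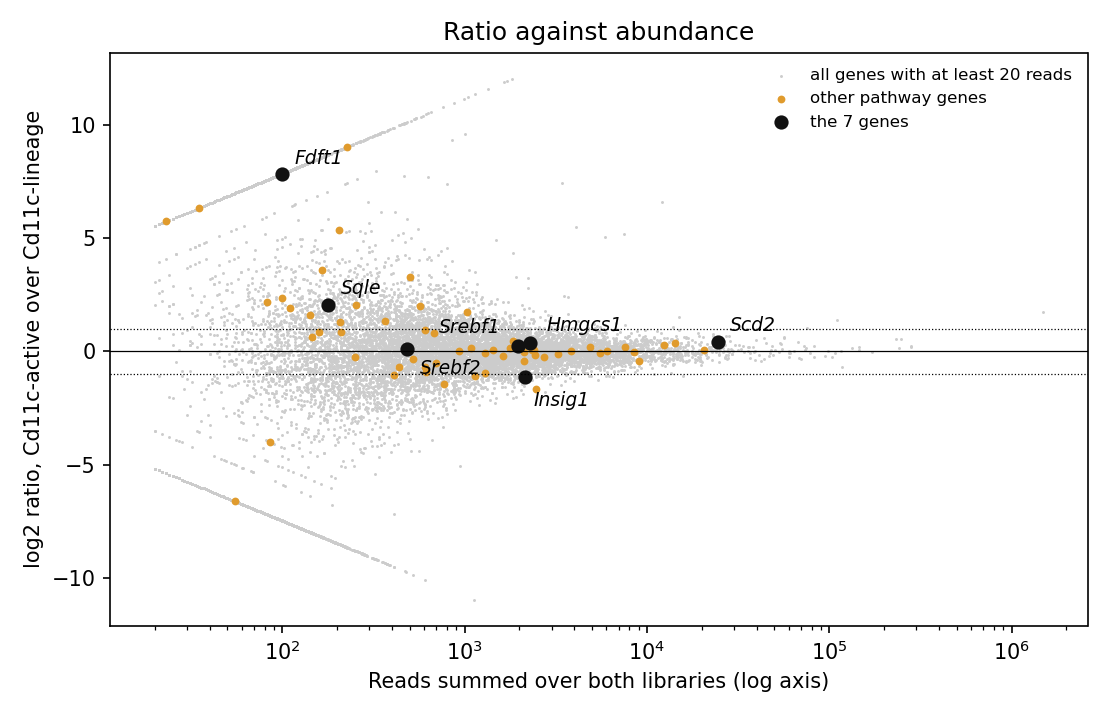
Log2 ratio of Cd11c-active over Cd11c-lineage (vertical axis) against reads summed over both libraries (horizontal log axis) for the 13037 genes with at least 20 reads (grey), the other genes of the pathway lists (orange) and the 7 genes (black). Dotted lines mark 2-fold, and the slanting edges are genes with 0 reads in either library. *Fdft1* lies on the upper edge, *Sqle* in the wide cloud of genes with few reads, and *Insig1* at the lower border of the narrow cloud above 1000 reads.

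The rest of the pathway was described by lists drawn up from knowledge of the pathway, though with earlier results of these data known, and 65 of their 75 genes were present in the table. The 21 enzymes from acetyl-CoA to cholesterol were all present. Of these, 16 were higher and 5 lower in Cd11c-active, where 6549 of all genes with at least 20 reads were higher and 6488 lower. The enzyme counts were the same under all 4 scalings tried. These scalings shift all ratios alike, by at most 0.14, which is less than any enzyme ratio. The median log2 ratio was 1.29, also with the 3 genes at 0 reads set to the floor, but 0.36 over the 11 enzymes with at least 200 reads and 0.42 over the 2 with at least 1000. Of the 21, 11 (52.4%) were at least 2-fold higher and 1 (4.76%) was at least 2-fold lower, against 23.3% and 21.6% of all genes with at least 20 reads. Added together they had 5156 reads against 4585, a log2 ratio of 0.36 (0.30 to 0.41), much smaller than the median. *Hmgcs1*, the enzyme with most reads, held 23.5% of the reads of the Cd11c-active library on this list and 23.4% of those of the Cd11c-lineage library.

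*Nsdhl*, which removes a methyl carbon from sterols, had 200 reads against 5 and the highest ratio of the enzymes with at least 200 reads, 5.37 (4.26 to 7.15), at percentile 90.8. *Ebp*, the sterol isomerase, had the lowest, with 187 reads against 580 and -1.44 (-1.69 to -1.21), at percentile 6.2. These enzymes act close together in the pathway and differed in opposite directions.

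The enzymes differed in direction by abundance. All 10 enzymes with at least 20 and under 200 reads were higher in Cd11c-active, 8 of them at least 2-fold, where 43.3% of genes with as many reads were at least 2-fold higher and 42.3% at least 2-fold lower. Of all 4086 genes in that range 2056 were higher and 2030 lower. The 10 enzymes had 946 reads against 253 in all. *Fdft1* and *Idi1* were among those with 0 reads in Cd11c-lineage, and *Idi1* is named after its values were seen. Of the 9 enzymes with at least 200 and under 1000 reads 4 were higher and 5 lower, with 3 and 1 past 2-fold, against 23.3% and 20.8% of genes in that range. Over the 11 enzymes with at least 200 reads 3 (27.3%) were at least 2-fold higher and 1 (9.09%) at least 2-fold lower, against 14.1% and 12.2% of all genes. None of the 21 lay outside the middle 95% of its own nearest genes, and their percentiles ran from 6.2 to 90.8.

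**Figure D3:**
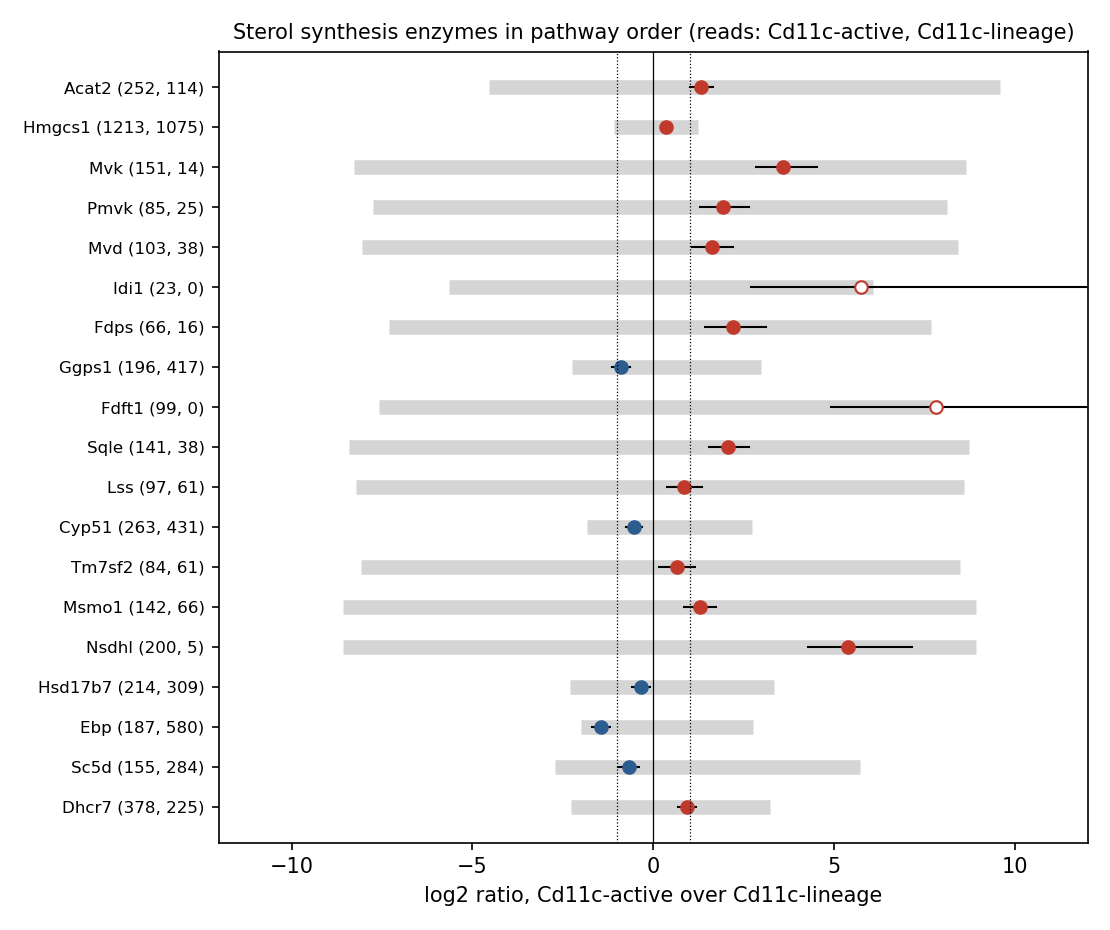
Log2 ratio of 19 of the 21 sterol synthesis enzymes in pathway order, with the reads in Cd11c-active and Cd11c-lineage beside each name. Points are red where higher in Cd11c-active, blue where lower and open where a library had 0 reads, black lines are exact 95% counting intervals (cut at the axis ends), and grey bars are the middle 95% of the 500 nearest genes in abundance. The 5 blue points lie among the enzymes with at least 200 reads, and every point lies within its grey bar.

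The 15 measured genes of SREBP control showed no common direction, with 7 higher and 8 lower (6 and 9 when scaled to library totals) and a median of -0.01. Past 2-fold, 1 (6.67%) was higher, *Nr1h2*, and 2 (13.3%) were lower, *Insig1* among them. All 15 had at least 200 reads, where 14.1% of all genes were at least 2-fold higher and 12.2% at least 2-fold lower. *Scap* had 992 and 1138 reads and a log2 ratio of -0.01 (-0.14 to 0.11). Of the proteases that release SREBP in the Golgi, *Mbtps1* stood at -0.12 (-0.22 to -0.02) and *Mbtps2* at -0.96 (-1.14 to -0.79), the latter with 402 and 893 reads at percentile 8.0. *Nr1h2*, which encodes the sterol sensor LXR beta, had 773 reads against 262 and a log2 ratio of 1.75 (1.54 to 1.96), at percentile 96.0. *Mylip*, a ubiquitin ligase gene and LXR target, had the most reads of the list, 6430 and 6052, with a ratio of 0.27 (0.22 to 0.32).

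Other ubiquitin ligases that act on enzymes or regulators of the pathway were near equal. *Marchf6*, whose product targets squalene epoxidase, had 2512 and 3008 reads and a log2 ratio of -0.07 (-0.15 to 0.00). *Rnf145* stood at 0.19 (0.11 to 0.28) and *Rnf139* at 0.14 (-0.03 to 0.32). All 3 were between percentiles 47.0 and 69.8 of their nearest genes.

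Of the 14 genes of sterol uptake and transport 10 were higher and 4 lower, and 6 and 8 when scaled to library totals, with a median log2 ratio of 0.06. Past 2-fold, 3 (21.4%) were higher and 2 (14.3%) lower, against 23.3% and 21.6% of all genes with at least 20 reads. Of the 12 with at least 200 reads 2 (16.7%) were higher and 1 (8.33%) was lower, against 14.1% and 12.2% of all genes with as many reads. *Scarb1*, a receptor for high-density lipoprotein that also binds dying cells, had 533 against 1926 reads and -1.67 (-1.81 to -1.53), at percentile 0.2. *Scarb1* was the gene of this list outside the middle 95% of its nearest genes.

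Genes of the lysosomal route were abundant and within 2-fold. *Npc1* and *Npc2*, which hand cholesterol out of the lysosome, had log2 ratios of 0.36 (0.31 to 0.41) and 0.07 (0.03 to 0.11), with 7550 and 6707 reads for *Npc1* and 9912 and 10772 for *Npc2*. *Lipa*, the acid lipase that frees cholesterol from its esters, had 3815 and 3808 reads and a ratio of 0.19 (0.12 to 0.25). *Stard3*, which moves cholesterol from late endosomes, was lower, with 841 and 1282 reads and a ratio of -0.42 (-0.55 to -0.30). *Soat1*, which esterifies cholesterol for storage, had 2837 and 3200 reads and a ratio of 0.01 (-0.06 to 0.09). When scaled to library totals *Npc2* and *Soat1* changed sign.

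The 13 measured genes of fatty acid synthesis had a median log2 ratio of -0.06, with 6 higher and 7 lower, or 3 and 10 when scaled to library totals. Past 2-fold, 1 (7.69%) was higher and 2 (15.4%) were lower, against 23.3% and 21.6% of all genes with at least 20 reads. Of the 10 with at least 1000 reads 0 were higher and 1, *Gpam*, was lower, against 5.43% and 4.14% of all genes with as many reads. *Scd2* had the highest ratio among those with at least 200 reads. *Gpam*, the first enzyme of glycerolipid assembly, had the lowest, with 334 against 810 reads and -1.09 (-1.28 to -0.91), at percentile 8.2. *Acly*, which supplies cytosolic acetyl-CoA, had 3573 and 5503 reads and a ratio of -0.44 (-0.50 to -0.38), at percentile 9.6. *Fasn*, the fatty acid synthase, had 1798 and 2043 reads and a ratio of 0.00 (-0.09 to 0.09). Per kilobase *Scd2* was 13.6 times *Fasn* in Cd11c-active (12.9 to 14.3) and 10.1 times in Cd11c-lineage (9.65 to 10.6). Without *Scd2* the list had 11019 reads against 14646, a log2 ratio of -0.22 (-0.26 to -0.19), against 0.09 (0.07 to 0.12) with it.

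**Figure D4:**
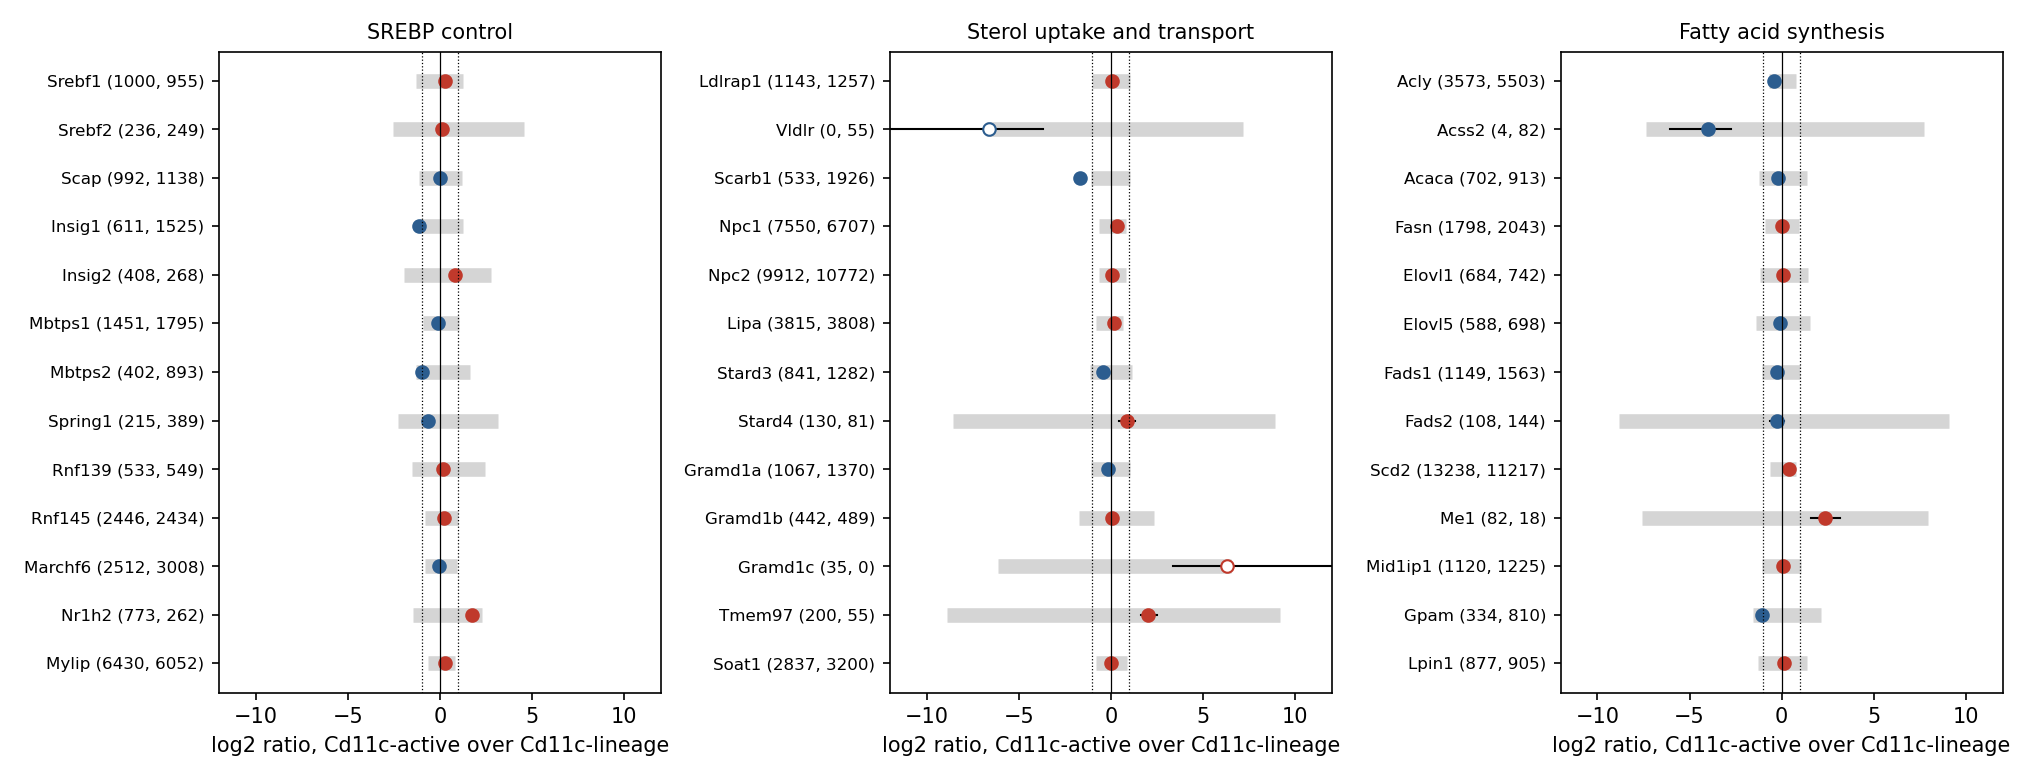
Log2 ratio of genes of SREBP control (left), sterol uptake and transport (middle) and fatty acid synthesis (right), with the same points, counting intervals and grey bars as for the sterol enzymes and the reads of Cd11c-active and Cd11c-lineage beside each name. Most points lie within the dotted 2-fold lines. *Scarb1* lies outside its grey bar, and *Insig1* on the edge of its own.

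Of 5 genes that make oxysterols and bile acid precursors 2 were measured, and both were higher in Cd11c-active. *Cyp27a1*, a mitochondrial sterol hydroxylase, had 443 reads against 124 and a log2 ratio of 2.02 (1.73 to 2.32), at percentile 95.2. *Hsd3b7*, which acts on hydroxylated sterols, had 225 reads against 0, at percentile 98.0. Against the floor of 3 reads it was at least 85.4-fold higher, and its exact interval began at a log2 ratio of 6.11. *Hsd3b7* was the gene of the 65 that lay above the middle 95% of its nearest genes, and 2, *Scarb1* and by a small margin *Insig1*, lay below theirs. The middle 95% leaves out some genes at each end by definition, so a few such genes among 65 are usual.

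Transcripts of other cell types moved with these comparisons. All 8 endothelial markers were at least 2-fold higher in Cd11c-active, with summed levels of 646 and 73.7 CPM, and *Cldn5*, *Esam*, *Flt1*, *Tek* and *Plvap* had 0 reads in Cd11c-lineage. The 5 mural markers with reads had 0 in Cd11c-lineage, and the 4 with at least 20 reads summed to 61.8 CPM in Cd11c-active. All 5 measured border macrophage markers were lower, at 21.2 against 131 CPM, and *Cd163*, *Lyve1*, *F13a1* and *Ms4a7* had 0 reads in Cd11c-active. Of 10 retinal neuron markers 9 were lower, at 136 against 224 CPM. The 5 Muller glia and astrocyte markers summed to 2279 and 2431 CPM, with 2 higher and 3 lower. *Glul*, which microglia also express, held 98.7% and 97.4% of those reads, and without it the list had 364 reads against 872, a log2 ratio of -1.07 (-1.25 to -0.90). The 5 monocyte and neutrophil markers summed to 374 and 173 CPM, with 2 higher and 3 lower. *Fn1* held 99.2% and 90.2% of those reads, and without it the direction reversed, with 35 reads against 239 and a log2 ratio of -2.57 (-3.14 to -2.07). One erythroid marker, *Hbb-bt*, reached 20 reads, with 0 and 31.

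Sterol enzymes and *Insig1* are expressed by many cell types, and the part of these other cells in the ratios of the 7 genes was not tested. In such bulk libraries fewer cells of a type and less RNA per cell cannot be told apart.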

How the data were processed

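Bulk RNA of 2 sorted populations was sequenced after ribosomal RNA depletion with a stranded kit, per the labels' protocols. The submitters' processing notes name cutadapt 3.5, STAR 2.7.9a, featureCounts 1.6.3, edgeR 4.0.16 and the build GRCm39. The annotation, the strand setting and the handling of duplicates are not given in the sources used here. The authors deposited raw counts per gene, per the file headers, with a smallest sum over both libraries of 6 reads. Also deposited were their log2 fold change between the libraries and a mean log2 CPM, per the file headers. In the authors' deposited table the log2 fold change was -1.27 for *Insig1*, 1.94 for *Sqle* and 0.29 for *Scd2*, close to the ratios of library totals computed here (-1.27, 1.93 and 0.29). For *Fdft1*, with 0 reads in one library, it was 9.66 against 7.69, and how it treats a count of 0 is not given in the sources used here.

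Counts were scaled with TMM in edgeR 4.0.16 under R 4.3.3 (factor 0.954 in Cd11c-active, 1.05 in Cd11c-lineage). The log2 ratio used reads plus 0.5. Intervals are exact (Clopper-Pearson for ratios, Poisson for levels), cover counting error only and treat reads as independent, which reads without molecular identifiers are not. A count of 0 allows 3 reads, 0.243 CPM in Cd11c-active and 0.214 CPM in Cd11c-lineage. Neither edgeR's quasi-likelihood test nor another count model could be fitted with 1 library in each group, so no p-value is given, and genes are counted past 2-fold among those with at least 20 reads. Lengths are of the longest transcript in GENCODE M21 (GRCm38), matched by gene ID for 13499 genes (99.6%). Promoter windows are RefSeq's on GRCm38.p6, and coordinates of that build are used for them alone.

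The script was tested on simulated data. Genes of the lists with at least 1000 reads, and the highest and lowest of each list among those with at least 200 reads, could be named, and a few of them are not reported here. *Insig2* and *Idi1* were named outside this rule. The members and lists were chosen with earlier results of these data known. Alternatives were library totals, RLE factors, scaling without 25 ribosomal, mitochondrial, 7SK and 7SL genes, 2 added reads, removal of a linear trend with length and GC content, other read minimums, a 1.5-fold threshold and 200 nearest genes. Python 3.11.15, numpy 2.4.6, scipy 1.17.1, pandas 2.3.3 and matplotlib 3.10.9 were used.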

Additional observations from a re-analysis of the deposited data

How the results depend on the processing

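No paired analysis was possible because each group has 1 library and nothing was tested. Over all alternatives the log2 ratio of *Insig1* lay between -1.27 and -1.13, that of *Hmgcs1* between 0.22 and 0.44, that of *Scd2* between 0.29 and 0.49, and that of *Sqle* between 1.93 and 2.10. *Srebf2* ranged from -0.03 to 0.11 and *Srebf1* from 0.11 to 0.25. The fitted ratio of *Fdft1*, which depends on the added reads, was 7.82 with 0.5 and 5.84 with 2 added. The median of the 21 sterol enzymes fell from 1.29 to 0.36 with at least 200 reads and to 0.42 with at least 1000, over fewer genes, and lay between 1.15 and 1.29 under the other alternatives. The median of the 7 genes lay between 0.22 and 0.44. With library totals the median of the uptake genes changed sign, from 0.06 to -0.08, and with the trend with length and GC content removed that of the control genes did, from -0.01 to 0.01. The median of all genes moved from 0.01 to -0.13 with library totals and to -0.017 with at least 1000 reads.

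Counts past 2-fold changed with the minimum of reads, which leaves fewer genes, and the share of all genes at least 2-fold higher also fell, from 23.3% to 14.1% and 5.43%. With at least 200 reads, 0 of the 7 genes, 3 sterol enzymes, 0 fatty acid genes and 1262 of all genes were higher, and 1 uptake gene, 1 fatty acid gene and 1091 of all genes were lower. With at least 1000 reads, 0 of the 7 genes, 0 sterol enzymes, 0 uptake genes, 0 fatty acid genes and 251 of all genes were higher, and 0 sterol enzymes, 1 control gene, 1 uptake gene, 1 fatty acid gene and 191 of all genes were lower. Scaled to library totals, 2 sterol enzymes were lower. With the trend with length and GC content removed, 1 fatty acid gene was lower, and the cause was not tested. At 1.5-fold, 14 sterol enzymes were higher and 3 lower, 2 control genes were higher and 4 lower, and 4004 of all genes were higher and 3856 lower. Of the 7 genes *Sqle* and *Fdft1* had the fewest reads, 179 and 99 over both libraries.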
